A study of Xenopus laevis with 6 samples.

Results

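Wnt ligands, their receptors, and the proteins that carry, restrain or answer the signal were followed in Xenopus laevis embryos during genome activation. The RNA came from embryos given a label for new transcripts. The genes were chosen by name: entries beginning with wnt and a digit, fzd, lrp5, lrp6, sfrp, axin, nkd, dvl, tcf7, lef1, ctnnb1, dkk2, dkk3, znrf3 or rnf43 with a mean normalized value of at least 12 over the 6 libraries. Of 50489 entries in the table, 92 had such a name and 50 of those reached the minimum. They comprised 8 ligand, 19 receptor, 3 secreted antagonist, 6 cytoplasmic transducer, 9 feedback regulator and 5 nuclear TCF/LEF entries. The other 42 were low, with 14 at 0 in every library and no mean above 11. Just outside the minimum lay wnt7a.S (mean 11), dvl1.L (10.2) and wnt7c.L (8.0), and just inside it fzd6.S (12.2), wnt5a.L (15.7) and wnt3a.L (16.2).

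The libraries fall into 3 groups of 2. Embryos labelled CHX were kept in 0.2 mg/ml cycloheximide, which blocks protein synthesis, from 5 hours post fertilization (hpf) and were collected at 7.5 hpf. Untreated controls were collected at 7.5 hpf and at 5 hpf. All embryos were wild type, were held at 22 °C, and had received, as 1-cell embryos, an injection of 5-ethynyl uridine (EU; 10 nl at 50 mM, about 0.5 mM in the embryo), a uridine analogue through which new RNA can be biotinylated and captured. The replicates share 1 clutch, and embryos per library are not stated, so p-values measure only the spread between these samples. In bulk, RNA of whole embryos cannot tell fewer expressing cells from less RNA per cell.

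Wnt proteins bind Frizzled receptors together with the coreceptors Lrp5 or Lrp6. Dishevelled then inhibits a complex built on Axin that otherwise marks beta-catenin for destruction, and stabilized beta-catenin enters the nucleus and acts with TCF/LEF proteins on target genes. In Xenopus, maternal beta-catenin signalling on the future dorsal side sets up the organizer, while zygotic Wnt8 signalling patterns ventral and lateral mesoderm. Targets of the pathway include its own inhibitors, such as axin2, znrf3, rnf43 and nkd1.

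Values are the authors' normalized counts, rounded to whole numbers, and are not corrected for gene length, so they are compared between groups and not between genes. Library totals ran from 6680033 to 7742693. The smallest value above 0 was 2 in both 5 hpf libraries and 1 in the other 4, so a value of 2 at 5 hpf is close to a single read. Replicates correlated across the 19149 genes tested with r = 0.927 under CHX, 0.853 in 7.5 hpf controls and 0.921 in 5 hpf controls. Control 7.5 hpf replicate 1 stood above replicate 2 in each of the 8 Wnt genes called in controls, by 1.69- to 4.69-fold. CHX replicate 1 likewise stood above replicate 2 in each of the 11 called under CHX against 5 hpf, by 1.1- to 2.28-fold. As a check of stage, 14 entries for early zygotic genes such as mix1, sia1 and nodal5 summed to 14993 and 11448 in CHX embryos, 38121 and 17638 in 7.5 hpf controls and 1951 and 1834 in 5 hpf controls. The 12 entries for egg-stored transcripts summed to 9399 and 9476 in CHX embryos, 9333 and 9753 in 7.5 hpf controls and 11120 and 10881 in 5 hpf controls. Egg-stored transcripts were thus present in all 6 libraries, so a value cannot be read as new transcription alone. This holds above all for genes already high at 5 hpf. Of 10 entries for differentiated cell types, 3 reached the minimum mean and 4 were at 0 throughout. The 10 summed to 556 and 408 in CHX embryos, 295 and 106 in 7.5 hpf controls and 118 and 88 in 5 hpf controls.

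From 5 to 7.5 hpf in untreated embryos, RNA rose for both entries of the ligand gene wnt8a. It also rose for the receptor entries fzd7.S, fzd8.L, fzd8.S and fzd10.L, and for both entries of the antagonist gene sfrp2. The entries fzd7.L and fzd10.S were not called. Intracellular transducers and feedback regulators gave no call. Of the 50 entries, 8 were higher and 0 lower (limma, Benjamini-Hochberg adjusted p under 0.05 over all genes). Over all genes tested, 5.90% were called higher and 0.715% lower, 6.61% together. At an unadjusted p under 0.05, 12 entries were higher and 5 lower, and 19.2% of all genes passed. The groups did not overlap in 18 entries above and 12 below, beside 25.6% and 20.5% of all genes. The median log2 fold change of the 50 was 0.06, against 0.03 over all genes. Of the 50, 10 had a mean under 12 at 5 hpf and entered only through the later libraries. They were both entries of wnt8a, fzd10 and sfrp2, with fzd6.S, lef1.L, wnt3a.L and wnt5b.S. For them the filter itself favours a rise from 5 hpf, so their adjusted p is no independent support for one. Among these 10, 5 were called higher, beside 31.8% of all genes with so low a start. Among the 40 that began at 12 or more, 3 were called higher, beside 2.97%. These 3 include fzd8.S, whose 5 hpf mean was exactly 12 (17 and 7). All 6 transducer and 9 feedback entries were among the 40, so their lack of a call lies near the 2.97% of all genes.

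wnt8a, the zygotic ligand of ventral and lateral mesoderm in Xenopus, was near 0 at 5 hpf from both copies. Both entered only through the later libraries, so the filter favours their rise. The L copy had values of 313 and 159 in 7.5 hpf controls and 4 and 0 in 5 hpf controls. The S copy had 248 and 147 at 7.5 hpf and 4 and 0 at 5 hpf. Both 7.5 hpf controls thus lay far above both 5 hpf controls, by a log2 fold change of 6.65 ± 0.82 (SE; limma adjusted p = 0.000633) for wnt8a.L and 6.42 ± 0.85 (adjusted p = 0.000982) for wnt8a.S. From so low a start the size of the fold depends on the pseudocount, and for wnt8a.L it was 7.22 at 0.5 and 5.09 at 5. No other ligand was called. wnt11b.L, a maternally supplied ligand gene in Xenopus, had 966 and 624 in 7.5 hpf controls and 458 and 419 in 5 hpf controls. Its groups did not overlap, but the log2 fold change of 0.82 ± 0.22 missed the threshold (adjusted p = 0.0537). It passed with a pseudocount of 5 (0.037), a minimum mean of 50 (0.0419) or a replicate block (0.0121). Under the remaining settings that left out no single library, the adjusted p of wnt11b.L ran up to 0.165. Its log2 fold change lay between 0.51 and 1.14 with a library left out. wnt3a.L had 31 and 23 at 7.5 hpf and 0 and 12 at 5 hpf (adjusted p = 0.306). The wnt5a and wnt5b entries, whose ligands act mainly outside the beta-catenin branch, had adjusted p from 0.384 to 0.855, and wnt5b.S rested on replicate 1 (113 and 9 at 7.5 hpf, 2 and 18 at 5 hpf).

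Among receptors, 4 of 19 entries rose, all of them Frizzleds, the seven-pass membrane receptors that bind Wnt. fzd10.L had 519 and 169 in 7.5 hpf controls and 9 and 7 in 5 hpf controls, a log2 fold change of 5.05 ± 0.52 (adjusted p = 0.000185). This entry was included only through the later libraries. fzd7.S had 1287 and 457 at 7.5 hpf and 72 and 58 at 5 hpf (3.55 ± 0.42, adjusted p = 0.000507). fzd8.S had 296 and 125 at 7.5 hpf and 17 and 7 at 5 hpf (4.01 ± 0.52, adjusted p = 0.000823). In all 3 the lower 7.5 hpf control still exceeded the higher 5 hpf control several times over. fzd8.L had 472 and 211 at 7.5 hpf and 126 and 72 at 5 hpf (1.72 ± 0.38, adjusted p = 0.0223). The adjusted p of fzd8.L was 0.17 when control 5 hpf replicate 2 was left out, 0.201 when control 7.5 hpf replicate 1 was, 0.142 or 0.143 when a CHX library was, 0.112 with no filter and 0.141 with the 2 groups alone. fzd7.L, which was already present at 5 hpf, had 4008 and 2390 at 7.5 hpf and 1870 and 1523 at 5 hpf, and narrowly missed (0.87 ± 0.23, adjusted p = 0.0502). It passed at a pseudocount of 5 (0.026), a minimum mean of 50 (0.0376) and a replicate block (0.00111). Recomputed size factors gave 0.0496, but they were 1.02 in every library and so repeat the deposited scaling, with 19045 genes tested in place of 19149. Under the remaining settings that left out no single library, the adjusted p of fzd7.L ran up to 0.179. Its log2 fold change lay between 0.50 and 1.25 with a library left out.

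**Figure D1:**
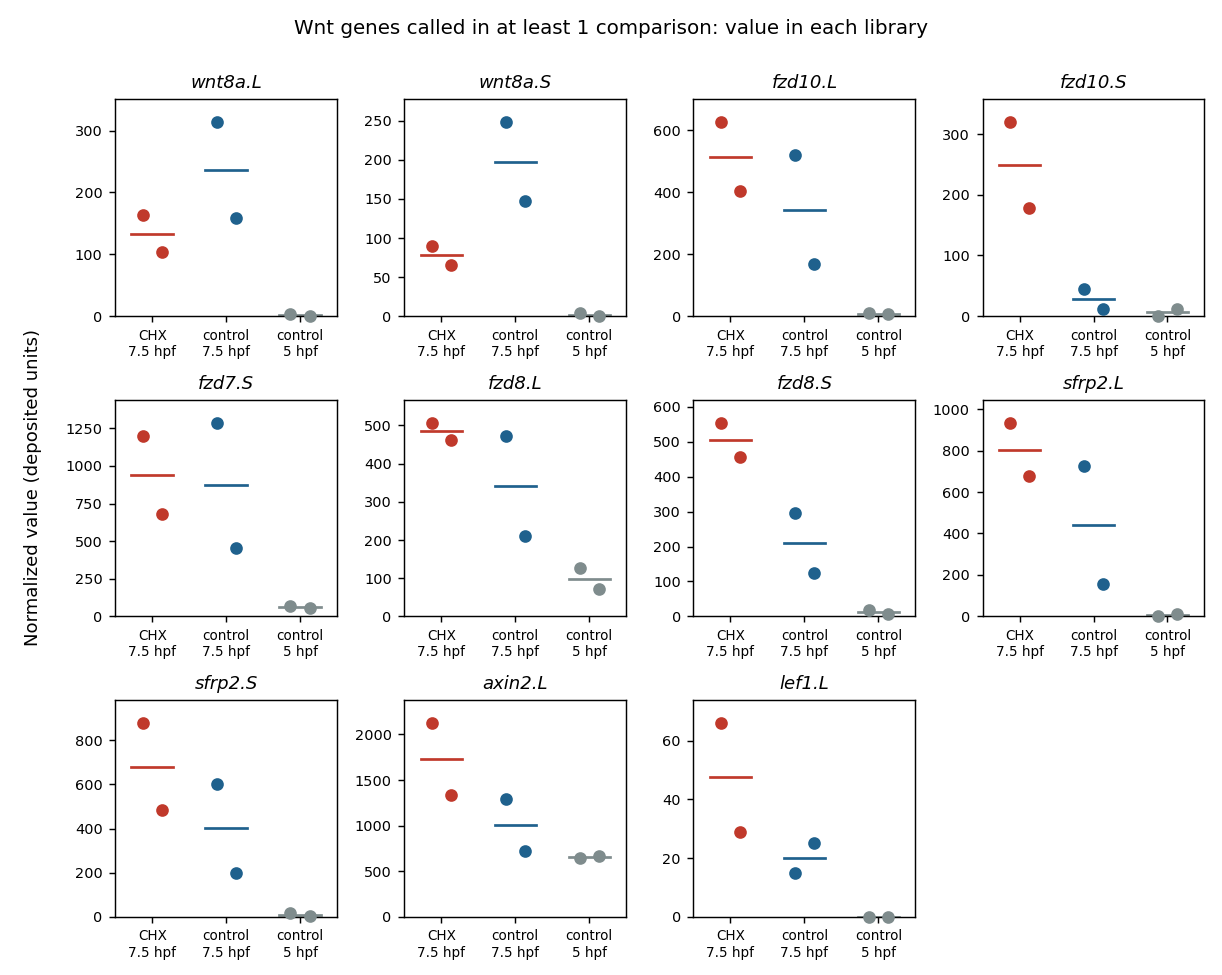
Normalized value of the 11 Wnt entries called in at least 1 comparison, on a linear axis from 0 that differs between panels. Each point is 1 library (replicate 1 left, replicate 2 right), and the bar is the mean of the 2 libraries of CHX at 7.5 hpf, control at 7.5 hpf and control at 5 hpf; the wnt8a means are 134 and 78.0 under CHX and 236 and 198 in controls at 7.5 hpf for the L and S copies, a difference that was not called.

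No coreceptor entry was called, nor were the other 11 of the 15 Frizzled entries. lrp6.L had 1575 and 2056 in 7.5 hpf controls and 2271 and 2703 in 5 hpf controls, so the later group lay below the earlier one, but the log2 fold change of -0.46 ± 0.16 was not called (adjusted p = 0.147). With the replicate number as a block lrp6.L passed (0.0418). The name lrp5.L stood on a pair of entries that the table does not tell apart. Its higher entry had 533 and 421 at 7.5 hpf and 539 and 559 at 5 hpf, and its lower entry 196 and 231 at 7.5 hpf and 214 and 284 at 5 hpf (adjusted p = 0.585 and 0.746). The other Frizzled entries without a call ranged in log2 fold change from -1.91 for fzd3.S to 2.76 for fzd10.S. For fzd3.S, where replicates disagreed (4 and 34 at 7.5 hpf, 43 and 55 at 5 hpf), the adjusted p was 0.281. Its log2 fold change was -3.31 without control 7.5 hpf replicate 2. For fzd10.S the adjusted p was 0.226, and from 0.189 to 0.442 under the other settings that left out no single library. The log2 fold change of fzd10.S lay between 0.91 and 4.61 with a library left out.

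sfrp2, which encodes a secreted protein with a Frizzled-like Wnt-binding domain, gave 2 calls among the 3 antagonist entries. The 5 hpf means were 6 for sfrp2.L and 10 for sfrp2.S, so both entered only through the later libraries. Apart from sfrpx.S, the remaining sfrp entries and the dkk2 and dkk3 entries stayed under the minimum mean. The share called in this role thus partly follows the filter. It also follows the name rule, which left out dkk1. Both dkk1 copies reached the minimum and are counted below with the other pathway genes (limma adjusted p in controls 0.0392 for dkk1.L and 0.476 for dkk1.S). sfrp2.S had 603 and 198 in 7.5 hpf controls and 15 and 5 in 5 hpf controls, a log2 fold change of 5.15 ± 0.59 (adjusted p = 0.000395). sfrp2.L had 727 and 155 at 7.5 hpf and 0 and 12 at 5 hpf (6.55 ± 1.02, adjusted p = 0.00293). For sfrp2.L the adjusted p was 0.107 when control 7.5 hpf replicate 1 was left out, 0.063 and 0.0645 when CHX replicate 1 and 2 were, and 0.0656 with the 2 groups alone. sfrpx.S, another member of the secreted Frizzled-related family, had 177 and 216 at 7.5 hpf and 140 and 120 at 5 hpf (adjusted p = 0.334).

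Inside the cell none of the 6 transducer entries was called in controls, and their log2 fold changes lay between -0.45 and 0.20. ctnnb1.L, one of the genes for beta-catenin, had 2658 and 2280 in 7.5 hpf controls and 2266 and 2269 in 5 hpf controls. ctnnb1.S had 2425 and 1982 at 7.5 hpf and 1992 and 1823 at 5 hpf. The 95% intervals of their log2 fold changes ran from -0.17 to 0.41 and from -0.12 to 0.52. The scaffold gene axin1 and the Dishevelled genes dvl2.L and dvl3.L gave adjusted p from 0.258 to 0.974. None of the 9 feedback entries was called either. axin2.L, the Wnt-induced Axin, had 1290 and 716 at 7.5 hpf and 640 and 665 at 5 hpf (log2 fold change 0.56 ± 0.27, adjusted p = 0.303). axin2.S, again a pair of entries under 1 name, had 903 and 897 at 7.5 hpf and 887 and 1227 at 5 hpf in its higher entry. The entries of nkd1, which encodes a Dishevelled-binding inhibitor, and of znrf3 and rnf43, ubiquitin ligases that clear Frizzled from the membrane, lay between -0.47 and 0.38 on the log2 scale.

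None of the 5 nuclear entries was called in controls. lef1.L, an activating partner of beta-catenin, entered only through the later libraries. It had 15 and 25 in 7.5 hpf controls and was listed at 0 in both 5 hpf controls, with an adjusted p of 0.0507. It passed at a pseudocount of 0.5 (0.0407), but the adjusted p ran up to 0.132 under the remaining settings. The other 4 nuclear entries were lower at 7.5 hpf without overlap, a pattern shown by 20.5% of all genes. tcf7l1.L, which encodes a mainly repressive TCF supplied by the egg in Xenopus, had 652 and 762 at 7.5 hpf and 988 and 1098 at 5 hpf (log2 fold change -0.56 ± 0.15, adjusted p = 0.0586). It passed with a minimum mean of 50 (0.0488), libraries scaled to equal totals (0.0338) or a replicate block (0.0422). Under the remaining settings that left out no single library, the adjusted p of tcf7l1.L ran up to 0.147. Its log2 fold change lay between -0.675 and -0.45 with a library left out. tcf7l1.S had 1753 and 1493 at 7.5 hpf and 2291 and 1976 at 5 hpf (adjusted p = 0.157).

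**Figure D2:**
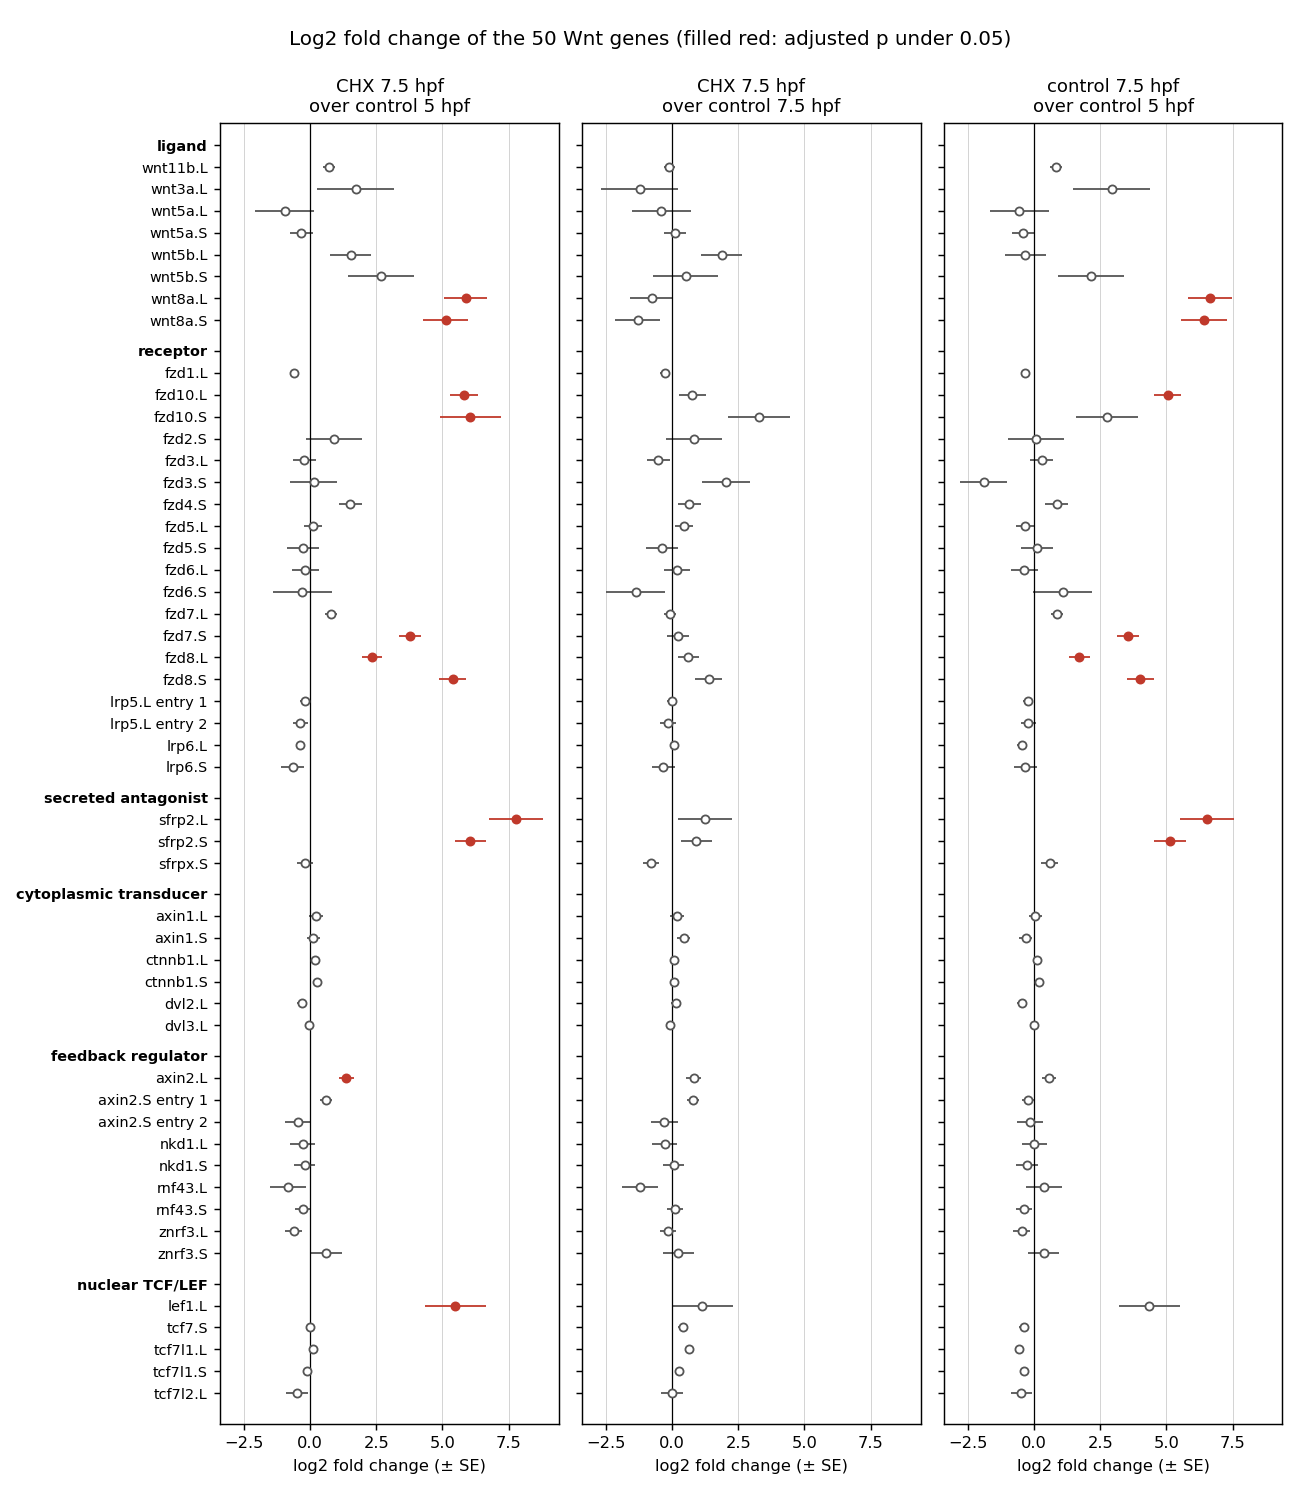
Log2 fold change with its standard error for the 50 Wnt entries, grouped by role, in the 3 comparisons named above the panels (first group over second). Filled red points have an adjusted p under 0.05: 11 in CHX over control 5 hpf, 0 in CHX over control 7.5 hpf and 8 in control 7.5 hpf over control 5 hpf.

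With protein synthesis blocked, the same classes of gene were high against the 5 hpf start. Calls also fell on axin2.L, fzd10.S and lef1.L, of which lef1.L had narrowly missed in controls (limma adjusted p = 0.0507). None of these was called between CHX and control at 7.5 hpf (adjusted p = 0.434, 0.467 and 0.822). Of the 50 entries, 11 were higher and 0 lower in CHX embryos at 7.5 hpf than in controls at 5 hpf, where 5.75% of all genes were called higher and 0.256% lower, 6.01% together. At an unadjusted p under 0.05 there were 15 higher and 2 lower, beside 15.9% of all genes. The groups did not overlap in 22 entries above and 7 below, beside 26.7% and 21.3% of all genes. The 8 entries called in controls were all among the 11, and both comparisons use the same 5 hpf libraries. Of the 10 entries that began under 12, 7 were called, beside 33.8% of all genes with so low a start, and of the other 40, 4 were called, beside 2.58%. These 4 again include fzd8.S, which began exactly at 12. Without CHX replicate 1 none of the 11 passed (adjusted p from 0.0573 to 0.371), and 78 of all genes were called higher in place of 1101; without CHX replicate 2, 4 of the 11 passed, with 298 of all genes. Their log2 fold changes stayed between 1.04 and 7.55 without replicate 1.

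wnt8a was called again from both copies. wnt8a.L had 164 and 103 in CHX embryos against 4 and 0 in 5 hpf controls (log2 fold change 5.87 ± 0.82, adjusted p = 0.00139). wnt8a.S had 90 and 66 against 4 and 0 (5.13 ± 0.85, adjusted p = 0.00413). Without CHX replicate 2 neither passed (adjusted p = 0.0791 for wnt8a.L and 0.119 for wnt8a.S). wnt11b.L had 806 and 650 under CHX against 458 and 419 at 5 hpf (0.72 ± 0.22, adjusted p = 0.0981). It passed with a replicate block (0.0277), library weights (0.032) or the 2 groups alone (0.0447). Under the remaining settings that left out no single library, the adjusted p of wnt11b.L ran up to 0.231. Its log2 fold change lay between 0.57 and 0.88 with a library left out.

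Among receptors 5 of 19 entries were higher. fzd10.L had 625 and 405 in CHX embryos against 9 and 7 in 5 hpf controls (5.82 ± 0.52, adjusted p = 7.53e-05), and fzd10.S had 319 and 178 against 0 and 12 (6.05 ± 1.16, adjusted p = 0.0101). The fzd10.S call was absent with no filter on low values (0.0712). fzd8.S had 554 and 456 against 17 and 7 (5.39 ± 0.52, adjusted p = 0.000118), and fzd8.L had 507 and 463 against 126 and 72 (2.33 ± 0.38, adjusted p = 0.00374). fzd7.S had 1196 and 680 against 72 and 58 (3.78 ± 0.42, adjusted p = 0.000328). Every CHX library stood above every 5 hpf library in these 5 entries. Without CHX replicate 2, fzd10.S (0.172) and fzd8.L (0.13) did not pass. fzd1.L had 626 and 569 under CHX against 973 and 855 at 5 hpf (-0.61 ± 0.17, adjusted p = 0.0611). It passed as lower with a replicate block (0.0498), library weights (0.0234), the 2 groups alone (0.0462) or without control 7.5 hpf replicate 1 (0.0486). fzd4.S, at 279 and 128 under CHX against 72 and 60, missed as higher (1.51 ± 0.44, adjusted p = 0.0784), and fzd7.L, at 3333 and 2544 against 1870 and 1523, did too (0.79 ± 0.23, adjusted p = 0.0832). Both passed with a replicate block (0.0316 and 0.00257) and with library weights (0.0402 and 0.0221). fzd7.L also passed at a pseudocount of 5 (0.0488) and with the 2 groups alone (0.0362). Under the remaining settings that left out no single library, the adjusted p of fzd7.L ran up to 0.237. Its log2 fold change lay between 0.59 and 0.98 with a library left out.

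sfrp2.L had 934 and 676 in CHX embryos against 0 and 12 in 5 hpf controls (7.79 ± 1.02, adjusted p = 0.000883), and sfrp2.S had 878 and 484 against 15 and 5 (6.06 ± 0.59, adjusted p = 0.000137). Without CHX replicate 2 sfrp2.L had an adjusted p of 0.0892. axin2.L, uncalled in controls, had 2125 and 1338 under CHX against 640 and 665 (1.37 ± 0.27, adjusted p = 0.013), the single feedback entry of 9 to be called. With no filter the adjusted p of axin2.L was 0.0885, and it was 0.107, 0.0838 and 0.0887 without control 5 hpf replicate 1, control 5 hpf replicate 2 and CHX replicate 2. The higher entry of axin2.S had 1998 and 1232 under CHX against 887 and 1227, so its groups lay only 5 units apart at their nearest, and it was not called (0.59 ± 0.23, adjusted p = 0.215). lef1.L had 66 and 29 against 0 and 0 (adjusted p = 0.0166; 0.0514 without control 5 hpf replicate 1, 0.0892 without CHX replicate 2 and 0.0612 with no filter). The 6 transducer entries lay between -0.30 and 0.26 on the log2 scale, with no call.

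Set directly against controls of the same age, no Wnt entry passed the test under CHX. In limma 0 of 50 were higher and 0 lower, where 0.198% of all genes were called higher and 0.355% lower, 0.554% together, and the smallest adjusted p was 0.15. The count was 0 in both directions under every alternative run. At an unadjusted p under 0.05 there were 9 entries, or 18% of the 50, beside 8.23% of all genes. Groups did not overlap in 12 entries above and 6 below control, beside 19.6% and 18.1% of all genes. Intervals were wide: for wnt8a.L the CHX to control ratio was 0.584 with a 95% interval from 0.166 to 2.06, and for wnt8a.S 0.407 (0.11 to 1.51). A missed threshold therefore does not show that the levels were alike. For beta-catenin they were narrow, with log2 fold changes from -0.24 to 0.35 for ctnnb1.L and from -0.26 to 0.38 for ctnnb1.S.

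The 9 entries with an unadjusted p under 0.05 are named here after their values were seen. The higher axin2.S entry, at 1998 and 1232 under CHX and 903 and 897 in controls, differed by 0.80 ± 0.23 on the log2 scale (adjusted p = 0.292), and axin2.L, at 2125 and 1338 under CHX and 1290 and 716 in controls, by 0.81 ± 0.27 (adjusted p = 0.434). Both CHX libraries exceeded both controls for each. tcf7l1.L, at 1150 and 1074 under CHX and 652 and 762 in controls, had the smallest p of all members (0.66 ± 0.15, adjusted p = 0.15). Its CHX values lay close to those of 5 hpf controls, 988 and 1098 (CHX against 5 hpf, 0.09 ± 0.15, adjusted p = 0.854). fzd10.S had 319 and 178 under CHX and 45 and 12 in controls (3.29 ± 1.16, adjusted p = 0.467), and fzd8.S had 554 and 456 under CHX and 296 and 125 in controls (1.38 ± 0.52, adjusted p = 0.489). The others were wnt5b.L, fzd3.S and tcf7.S above control, and sfrpx.S below it (106 and 119 under CHX, 177 and 216 in controls, adjusted p = 0.518).

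**Figure D3:**
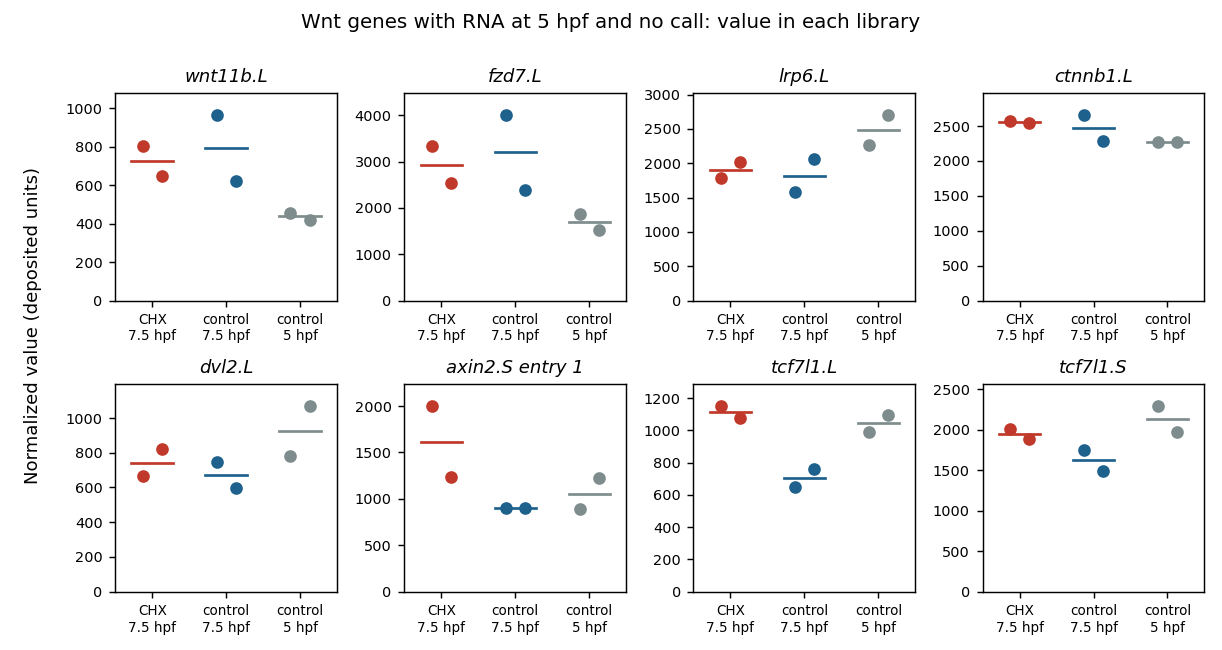
Normalized value of 8 Wnt entries that had RNA at 5 hpf and were called in no comparison, on linear axes from 0. Points are libraries and bars the mean of 2 in CHX at 7.5 hpf, control at 7.5 hpf and control at 5 hpf; the ctnnb1.L means stay between 2268 and 2558, and tcf7l1.L is lower in control at 7.5 hpf (707) than in CHX (1112) or at 5 hpf (1043).

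Xenopus laevis carries a pair of subgenomes, so that many genes exist as homeologous L and S copies. The response of the copies was compared in 17 Wnt pairs within a limma fit over 4747 pairs. In untreated embryos 2 of the 17 differed, fzd7 and fzd8, beside 1.62% of all pairs, and the S copy rose more in both. For fzd7 the log2 fold change was 0.87 in the L copy and 3.55 in the S copy, a difference of -2.67 ± 0.25 (SE, adjusted p = 4.58e-05). For fzd8 it was 1.72 in the L copy and 4.01 in the S copy, a difference of -2.29 ± 0.45 (adjusted p = 0.0231). The copies began from unlike values: 1870 and 1523 for fzd7.L beside 72 and 58 for fzd7.S, and 126 and 72 for fzd8.L beside 17 and 7 for fzd8.S. In deposited units the mean gain to 7.5 hpf was 1502.5 for fzd7.L and 807 for fzd7.S, and 242.5 for fzd8.L and 198.5 for fzd8.S. The larger fold of the S copy thus did not go with a larger mean gain in units. The gains of the copies were not tested against each other, and values are not corrected for gene length. Library values at 7.5 hpf overlapped between the fzd8 copies (472 and 211 for L, 296 and 125 for S), and the rise of fzd7.L was not called. The fzd8 difference did not pass when control 7.5 hpf replicate 1 (0.127), CHX replicate 1 (0.182) or CHX replicate 2 (0.18) was left out.

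In CHX embryos against 5 hpf controls the same 2 pairs differed, beside 1.66% of all pairs. For fzd7 the log2 fold change was 0.79 in the L copy and 3.78 in the S copy (SE of the difference 0.25, adjusted p = 1.87e-05), and for fzd8 the difference was -3.06 ± 0.45 (adjusted p = 0.0034; 0.277 without CHX replicate 1 and 0.19 without replicate 2). The mean gain in units under CHX was 1242 for fzd7.L and 873 for fzd7.S, and 386 for fzd8.L and 493 for fzd8.S. These gains were likewise not tested between copies. In fzd7 the difference held without any 1 library in both comparisons, with adjusted p up to 0.0092. wnt8a and sfrp2 rose from both copies, with differences of 0.22 ± 0.95 and 1.40 ± 1.17 in controls that did not pass (adjusted p = 0.956 and 0.681). Between CHX and control at 7.5 hpf 0 of 17 pairs differed by limma, with 2 at an unadjusted p under 0.05, and 0 of all 4747. Copies may share reads, and the sources used here do not say how the authors divided them.

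**Figure D4:**
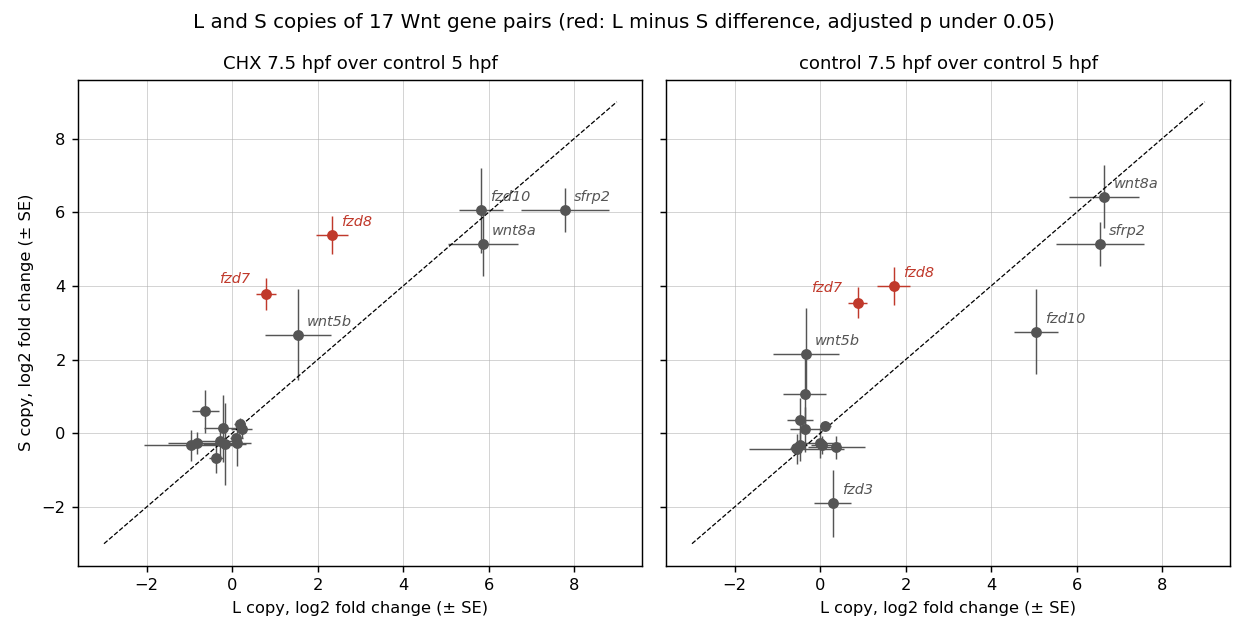
Log2 fold change of the S copy against that of the L copy for 17 Wnt gene pairs, with standard errors, in CHX 7.5 hpf over control 5 hpf (left) and control 7.5 hpf over control 5 hpf (right). Red points are the pairs whose L minus S difference passed an adjusted p under 0.05, and fzd7 and fzd8 lie above the dashed line of equal change in both panels.

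The rest of the pathway was taken from a list of agonists, other antagonists, planar polarity genes, destruction complex genes, nuclear cofactors and Wnt target genes, of which 126 entries were tested. In controls from 5 to 7.5 hpf 16 were higher and 2 lower. In CHX embryos against 5 hpf controls 23 were higher and 1 lower. Against 7.5 hpf controls 0 were called under CHX by limma. The 33 entries of the destruction complex and its kinases gave 0 calls in each comparison, as did the 5 entries of ligand export and modification. Of these, 32 of the 33 and all 5 began at 12 or more. Of all genes with such a start, 2.97% were called higher in controls and 2.58% under CHX. Between CHX and control 0.554% of all genes were called. These zeros thus lie near the shares of all genes. Wnt target genes gave 9 of 30 higher in controls and 14 of 30 under CHX. Of these 30, 23 had a mean under 12 at 5 hpf. Among the 23, 6 were higher in controls and 13 under CHX, beside 31.8% and 33.8% of all genes with so low a start. Of the other 7, 3 were higher in controls and 1 under CHX, beside 2.97% and 2.58%. The list's group of other secreted antagonists gave 4 of 11 and 5 of 11. That group also held bambi, a membrane protein gene, and szl, both of the BMP pathway. Its calls in controls were bambi.L, cer1.S, dkk1.L and frzb.S. Under CHX against 5 hpf they were bambi.L, dkk1.L, dkk1.S, szl.L and szl.S. Of the 126 entries, 32 had a mean under 12 at 5 hpf, 23 of them target genes. Among those 32, 10 were higher in controls and 18 under CHX, beside 31.8% and 33.8% of all genes with so low a start. Among the other 94, 6 were higher in controls and 5 under CHX, beside 2.97% and 2.58%. The count higher in controls was 4 without control 7.5 hpf replicate 1 or without either CHX library, and 10 without either 5 hpf library. The count higher under CHX was 2 and 5 without CHX replicate 1 and 2, and 13 without control 5 hpf replicate 2.

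Single genes of this list had these values. sp5l.L, a zinc finger gene induced by Wnt, had 640 and 300 in CHX embryos, 1515 and 535 in 7.5 hpf controls and 0 and 0 at 5 hpf, and sp5l.S had 447 and 276, 1263 and 386, and 0 and 0. sia1.L, an early dorsal target of maternal beta-catenin, had 226 and 120 in CHX embryos, 481 and 108 in 7.5 hpf controls and 22 and 19 at 5 hpf. The homeobox gene gbx2.1.S had 388 and 214 in CHX embryos, 13 and 8 in 7.5 hpf controls and 0 and 0 at 5 hpf, with both CHX libraries above both controls. Neither sp5l.L nor gbx2.1.S was called between CHX and control (adjusted p = 0.0818 for gbx2.1.S and 0.681 for sp5l.L). The antagonist gene frzb.S had 13 and 6 under CHX, 260 and 69 in 7.5 hpf controls and 0 and 0 at 5 hpf. The BMP pathway gene szl.S had 386 and 339, 94 and 128, and 50 and 12 in the same groups. Between CHX and control at 7.5 hpf neither was called (limma adjusted p = 0.341 for frzb.S and 0.42 for szl.S). The 2 lower entries in controls were the cofactor gene pygo2.S (adjusted p = 0.0199) and myc.S (0.0417), and the lower entry under CHX against 5 hpf was the corepressor gene tle1.L (0.0177).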

How the data were processed

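Salmon 0.12.0 and DESeq2 are the tools named in the submitters' processing notes. The deposited values were handled as a score, since they read as the authors' counts per gene after scaling by size factors and rounding. That reading rests on the values, and whole reads could not be recovered. The sources used here state neither a genome build nor an annotation or strand setting. The 482 repeated names (1738 entries) were kept as separate genes.

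Values were compared as log2(value + 1) in limma 3.58.1 (R 4.3.3), with 1 linear model of the 3 groups over 6 libraries, moderated two-sided tests with an intensity trend, 3 residual degrees of freedom and Benjamini-Hochberg adjustment over 19149 genes with a mean of at least 12. The added 1 shrinks the fold changes of low genes, whose values rest on few reads and are uncertain in both directions. Homeolog pairs were fitted likewise on the L minus S difference. The test was also run on simulated, independent normal values. These are simpler than the data, so error rates here were not measured. Figures used Python 3.11.15 and matplotlib 3.10.9.

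Members and lists were chosen with earlier results of these data known. Named genes are the entries called in any comparison, the highest of each role and their homeologs, plus up to 6 called pathway genes per comparison. Entries outside this rule were named after their values were seen. Of 50 entries, 48 matched a RefSeq symbol (Xenopus_laevis_v10.1). Coordinates and promoter sequences were not used here.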

Additional observations from a re-analysis of the deposited data

How the results depend on the processing

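With each other setting, and with each library left out, calls moved by over 1.5 times for 97 of 300 counts, and of 892 values of single genes or pairs 39 lost and 26 gained a call; no called gene changed direction. Among the Wnt entries, calls in controls from 5 to 7.5 hpf lay between 6 and 10 higher (8 in the model as described) and 0 and 2 lower with a library left out; the lower count was 1 at a minimum mean of 50, 1 with equal totals and 2 with a replicate block. For CHX against 5 hpf the higher count lay between 0 and 13 with a library left out (11 with all 6) and the lower between 0 and 1; the lower count was 1 with a replicate block, library weights or the 2 groups alone. For CHX against control at 7.5 hpf it was 0 throughout. Homeolog pairs called with a library left out were 1 to 4 in controls, 0 to 1 for CHX against control and 1 to 3 for CHX against 5 hpf.

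Other Wnt pathway genes in controls gave 5 higher and 0 lower with no filter, 4 and 0 with the 2 groups alone, 4 lower with equal totals and 1 lower with library weights; with a library left out, 4 to 21 higher and 0 to 6 lower. For CHX against control they gave 7 higher at a pseudocount of 5, 1 at a minimum mean of 50, 1 with a replicate block and 2 with the 2 groups alone (0 to 1 with a library left out). For CHX against 5 hpf they gave 14 higher with no filter or a minimum mean of 50 and 0 lower with no filter (2 to 28 higher and 0 to 1 lower with a library left out).

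Over all genes, controls gave 628 higher and 37 lower with no filter, 598 and 31 with the 2 groups alone, 260 lower with equal totals and 76 with library weights (488 to 1345 higher and 14 to 654 lower with a library left out). CHX against control gave 23 higher with 0.5 as pseudocount, 109 higher and 111 lower with 5, 0 and 0 with no filter, 62 and 105 with a replicate block, 72 and 44 with the 2 groups alone (0 to 100 and 0 to 104 with a library left out). CHX against 5 hpf gave 661 higher and 10 lower with no filter, and 83, 103, 174 and 88 lower with equal totals, a replicate block, library weights and the 2 groups alone (78 to 1265 and 1 to 79 with a library left out). The cause of these shifts was not tested.

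With equal totals the all-gene median of the log2 fold change in controls was -0.11, against 0.03. Recomputed size factors were 1.02 in every library, so that setting repeats the deposited scaling. Replicate numbers are not said to mark a shared source: differences between replicates 1 and 2 correlated across genes with r = 0.13 between CHX and 7.5 hpf controls, -0.0198 between CHX and 5 hpf controls and 0.00795 between the control groups, so the block is no paired analysis. Values near 0 at 5 hpf stand for very few reads, and those folds are the least certain. The motif count in promoters that was planned was not run.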
